A study of Mus musculus with 36 samples.

Results

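Monocyte-derived dendritic cells (Mo-DC) were compared with IFN-γ-stimulated macrophages (MΦ_IFN-γ), both grown from mouse bone-marrow monocytes and both given IFN-γ at the end of culture. The samples were chosen by their titles, which gave 3 Mo-DC arrays and 3 IFN-γ macrophage arrays, 6 of the 36 arrays in the series. The starting cells of both groups were sorted by flow cytometry for CD11b and Ly6C and against Ly6G. Mo-DC were grown in 10% fetal calf serum with 20 ng/ml GM-CSF and 20 ng/ml IL-4, and the macrophages in 10% fetal calf serum with 20 ng/ml M-CSF. Both received 25 ng/ml IFN-γ on day 6 for the last 24 h of a 7-day culture, so IFN-γ does not separate them. GM-CSF, IL-4 and the lack of added M-CSF all differ between the groups and cannot be told apart by this comparison alone. A further 6 arrays of the series, M-CSF macrophages given 20 ng/ml IL-4 for 24 h (MΦ_M2a) and unstimulated M-CSF macrophages (MΦ_M0), showed the response to IL-4 in another setting, with M-CSF, without IFN-γ and for 24 h only, and share no array with the Mo-DC comparison. Strain, sex and age are not given in the labels used here, nor is it said whether GM-CSF and IL-4 stayed in the medium during the last 24 h. Whether the 3 replicates within a group are separate mice or separate cultures is not stated either, so p-values measure only the spread between arrays, which may be technical.

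M-CSF signals through Csf1r and drives monocytes towards macrophages, whereas GM-CSF signals through Csf2ra and Csf2rb to STAT5 and, with IL-4, is the classical recipe for dendritic cells in culture. IL-4 acts through Il4ra and STAT6 and induces the genes of alternative activation, while IFN-γ induces genes of antigen presentation and of defence inside the cell. Dendritic cells take up antigen, move to lymph nodes along a CCR7 gradient and prime T cells, and macrophages engulf and degrade cells and microbes where they lie.

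RNA was hybridised to 1-colour Agilent mouse arrays, and a level below is the log2 intensity of a gene's probe relative to the 75th percentile of its array, so 0 is a fairly bright probe. That percentile was 434.5 to 490.2 intensity units on the Mo-DC arrays and 540.6 to 589 on the macrophage arrays, and 54.1% to 56.4% of probes were well above background on these 6 arrays. Arrays of one group correlated at 0.988 to 0.993 over genes, and arrays of different groups at 0.924 to 0.936. Among these 6 arrays, each series number in the labels is 1 slide that held 1 Mo-DC and 1 IFN-γ macrophage array. Series 1 was scanned on another day than series 2 and 3, so slide and scan day are balanced between these groups. The IL-4 and M0 macrophage arrays shared other slides with the sorted monocytes. The number of arrays limits the precision. RNA came from whole cultures, so fewer cells of a type and less RNA per cell cannot be told apart.

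Of 17591 genes tested with limma over the whole series, 3940 were higher in Mo-DC and 4428 were lower at an adjusted p below 0.05, which is 22.4% and 25.2% of the genes tested and 47.6% in both directions together, and 2277 and 1333 of these differed by at least 2-fold (12.9% and 7.58%). Levels in Mo-DC and macrophages were fully separated for 61.3% of all genes tested, and 8302 of the 8368 called genes had the same sign on all 3 slides. With this scaling, changes of 2-fold or more leaned towards Mo-DC, and small ones towards the macrophages. The 2-fold counts include genes below background in 1 group. With normexp background correction 2084 genes were called with at least 2-fold difference in place of 3610. The split of 2-fold changes by direction was not computed under the other settings. Among called genes 47.1% were higher in Mo-DC, and this share fell to 23.9% with arrays scaled to their median and was 41.8% after quantile normalization. Scaling to the median moved the median difference of all genes from -0.04 to -0.40 log2, so a list whose balance turned under that scaling is marked below with both counts. A fold written as at least N-fold belongs to a gene below background on all 3 arrays of its dimmer group, and sets the brighter mean against the higher of the gene's own dim signal and the lowest signal that passed as above background on those arrays. An adjusted p printed with such a fold is that of the fitted difference, which uses the dim signal itself, and the bound was not tested. Lists are described by their called members beside the 16476 genes that were above background in at least 1 group, of which 3844 were higher, 4402 were lower and whose median difference was -0.06 log2. With median scaling 2426 of these genes were higher and 7777 lower, and the median-scaled counts of a list stand beside those.

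Growth factor receptors and their feedback genes changed in both directions. Csf1r, the M-CSF receptor, was at 4.74, 4.69 and 4.92 on Mo-DC arrays 1, 2 and 3 and at 6.68, 6.72 and 6.52 on the macrophage arrays, with no overlap, and was 3.62-fold lower in Mo-DC (log2 -1.86 ± 0.19 SE, adjusted p = 6.26e-09). Csf3r, the G-CSF receptor, was 18.4-fold lower (-4.20 ± 0.30, adjusted p = 7.86e-12). The feedback inhibitor Cish, a STAT5 and STAT6 target, stood at 5.63, 5.71 and 5.46 in Mo-DC against -1.97, -2.09 and -2.31 in macrophages, 211-fold apart (7.72 ± 0.36, adjusted p = 2.01e-15). Its relative Socs2 was 706-fold higher (9.46 ± 0.45, adjusted p = 3.41e-15). All Mo-DC arrays lay far above all macrophage arrays for both inhibitors. Socs1, the inhibitor that IFN-γ and IL-4 both induce, rose by 0.91 ± 0.37 log2 (adjusted p = 0.0445), a call lost when Mo-DC array 1, 2 or 3 or macrophage array 2 or 3 was left out (adjusted p 0.0515 to 0.171), and also with median scaling (0.222), normexp background correction (0.0586) or no filter on dim probes (0.0636). Of 28 measured STAT, JAK, SOCS and PIM genes with their targets, 14 were higher and 7 lower, against 11 and 12 with median scaling. Of 35 cytokine receptor genes 13 were higher and 8 lower, against 11 and 13 with median scaling. Receptors of the IL-1 family were among the highest. Il1rl2, the IL-36 receptor chain, was 132-fold higher (7.04 ± 0.66), Il1r1 was at least 29.2-fold higher, being below background on every macrophage array (adjusted p = 7.84e-13), and Il1rl1, the IL-33 receptor, rose by 3.65 ± 0.47 log2 with 2 of 3 macrophage arrays above background.

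Transcription factors changed in both directions. Irf4, which dendritic cells and IL-4-treated macrophages use, was at 2.15, 2.24 and 1.37 in Mo-DC and below background on all 3 macrophage arrays. The bound is at least 197-fold higher, and the fitted difference had an adjusted p of 1.1e-13. Bhlhe40 rose by 4.88 ± 0.29 log2 and Egr2 by 4.56 ± 0.51, and both are IL-4- or GM-CSF-responsive factors. Zbtb46, a factor that marks classical dendritic cells, was at -1.75, -1.30 and -2.11 against -5.04, -3.60 and -4.96, a 7.05-fold difference without overlap (2.82 ± 0.32, adjusted p = 3.67e-08). Its size depended on the probe. Dimmer Zbtb46 probes, above background on all Mo-DC arrays and on no macrophage array, differed by 6.13, 5.50 and 3.415 log2. Factors that were lower included Irf7, the amplifier of type I interferon (34.5-fold), and Id3, an inhibitor of E proteins (20.4-fold, adjusted p = 7.63e-07). Pparg, the fatty acid-sensing nuclear receptor, was 2.70-fold lower (adjusted p = 2.74e-05) while IL-4 raised it in M-CSF macrophages by 0.74 log2 (adjusted p = 0.0475), and the 2 contrasts differed for it by -2.18 ± 0.35 (adjusted p = 2.96e-05). Irf8 was 1.6-fold lower (-0.68 ± 0.20, adjusted p = 0.0065). In all 17 of 39 measured factors were higher and 10 were lower, against 15 and 16 with median scaling.

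Genes of dendritic cells were higher in the cultures labelled as such, with exceptions. Of 37 measured conventional dendritic cell genes 23 were higher and 3 lower, with a median of 1.52 log2 (1.32 with genes below background set to their bound), and this direction held under each scaling tried. Itgax, which encodes the CD11c used to define dendritic cells, was at 7.95, 7.97 and 7.89 in Mo-DC and at 4.33, 3.40 and 2.74 in macrophages. These groups were separate by a wide margin, a 21.8-fold difference (4.45 ± 0.57, adjusted p = 3.73e-07). Ly75, the antigen uptake receptor DEC-205, was 80.4-fold higher (6.33 ± 0.48, adjusted p = 3.71e-11). P2ry10 and Spint2 were below background on all macrophage arrays and at least 34.3-fold and 18.1-fold higher. Sorted monocytes had means of -0.49 for P2ry10 and -0.25 for Spint2, against -0.60 and -1.52 in Mo-DC. Flt3, the receptor through which classical dendritic cells develop in the body, was at -5.36, -4.56 and -4.41 against -5.48, -5.14 and -5.21, overlapping levels that did not pass the test (0.50 ± 0.34, adjusted p = 0.24) except on the arrays of a single scan day (0.69, adjusted p = 0.0352). Cd209a, a lectin often used for monocyte-derived dendritic cells, and Btla were below background on all 6 arrays. Clec9a, a marker of cross-presenting dendritic cells, was 2.57-fold lower in Mo-DC (-1.36 ± 0.48, adjusted p = 0.0214). That call was lost without Mo-DC array 2 or macrophage array 1 or 2 (adjusted p 0.0524 to 0.105).

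Genes that dendritic cells switch on as they mature and migrate were mostly higher too. Of 32 measured genes 21 were higher and 4 lower, with a median of 1.23 log2, and 2 were lower without Mo-DC array 3. Ccr7, the receptor that guides dendritic cells to lymph nodes, was at 3.48, 4.90 and 4.34 in Mo-DC and at -5.71, -4.50 and -3.96 in macrophages, 500.5-fold apart (8.97 ± 0.82, adjusted p = 9.2e-10). Tnfrsf9, which encodes the costimulatory receptor 4-1BB, was at 1.11, 1.73 and 0.67 and was below background on every macrophage array, at least 117-fold higher (adjusted p = 2.42e-16). Tnfsf4, the OX40 ligand, was 38.4-fold higher with 1 of 3 macrophage arrays above background, and Cd200, an inhibitory ligand, was 77.7-fold higher. Il12b, the p40 chain of IL-12, lay at -5.44, -3.81 and -2.96 in Mo-DC and below background in macrophages, at least 3.09-fold higher (adjusted p = 8.38e-05), a call lost with the normexp background correction (adjusted p = 0.233). The maturation gene Cd40 did not pass the test (-0.30 ± 0.28, adjusted p = 0.407). Cd86 overlapped between the groups and did not pass either (0.68 ± 0.43, adjusted p = 0.207), but it was higher in Mo-DC on each of the 3 slides and was called with the slide number as a block and only these 2 groups fitted (adjusted p = 0.0236).

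**Figure D1:**
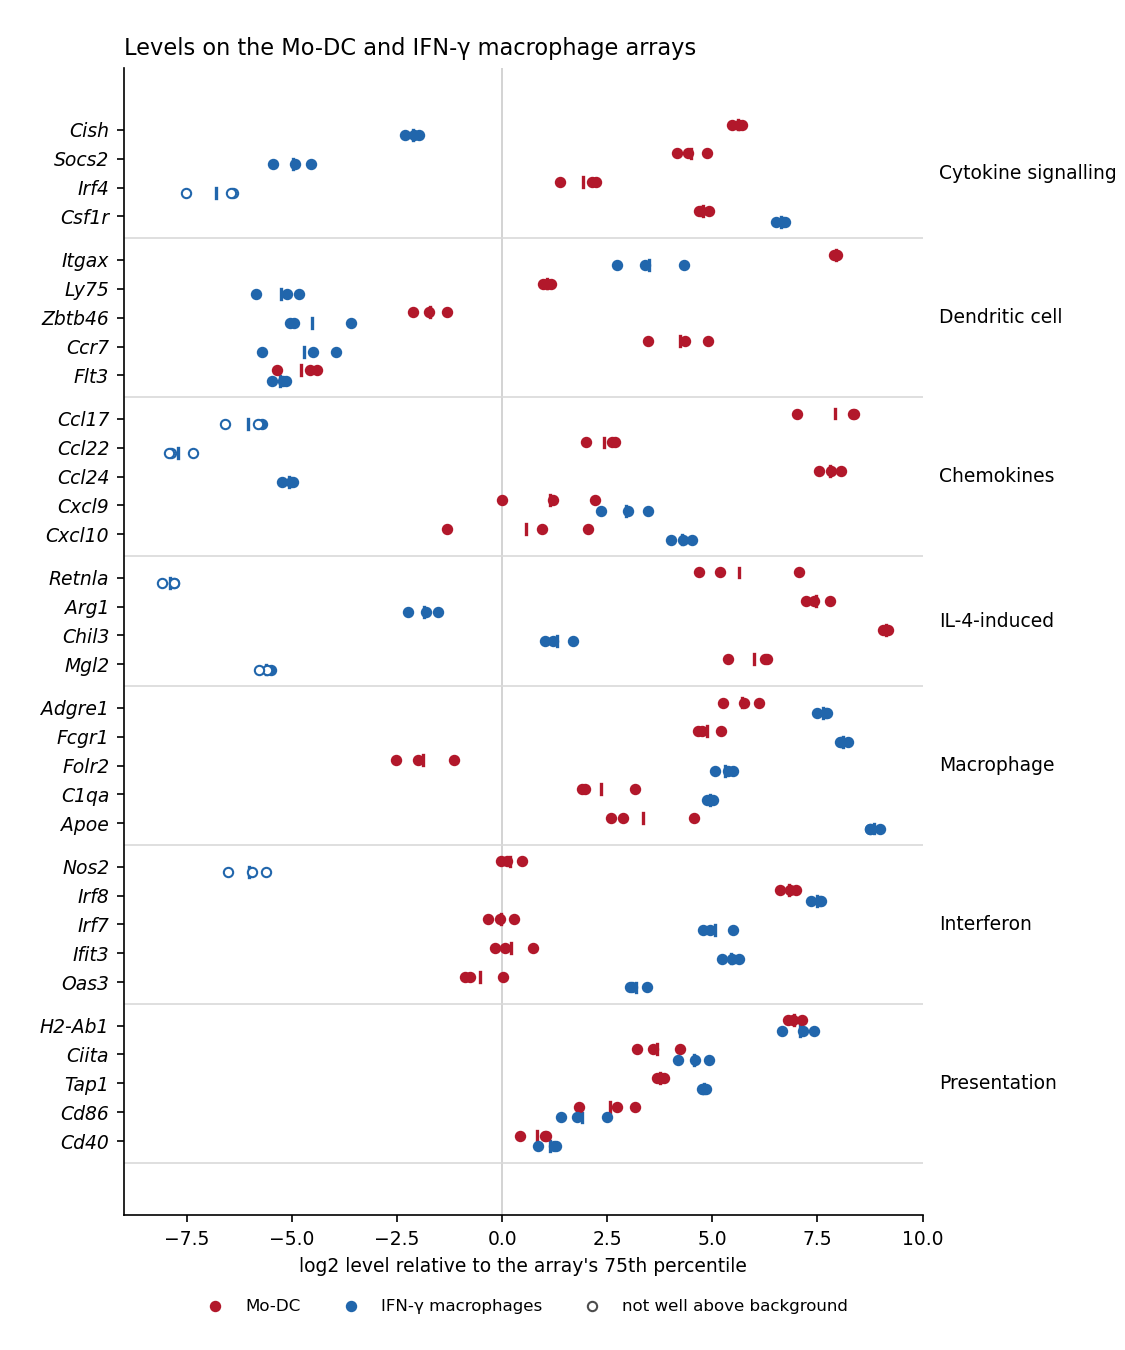
Levels of 33 genes on each Mo-DC (red) and IFN-γ macrophage (blue) array, as log2 intensity relative to the array's 75th percentile; each point is 1 array, short bars are group means, and open points were not well above background. Itgax sits at 7.89 to 7.97 in Mo-DC and at 2.74 to 4.33 in macrophages, whereas Flt3, H2-Ab1, Cd86 and Cd40 overlap.

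Chemokines gave some of the largest differences. Of 24 measured, 12 were higher and 3 lower, with a median of 1.85 log2, or 1.03 with genes below background at their bound. Ccl17, a CCR4 ligand that draws T cells to dendritic cells, was at 8.36, 8.35 and 7.02 in Mo-DC and at -5.71, -5.81 and -6.60 in macrophages, where 1 of 3 arrays was above background. The fitted difference was 15810-fold (13.95 ± 0.67, adjusted p = 3.93e-15). Ccl22, the other CCR4 ligand, was at least 279-fold higher (adjusted p = 3.75e-12), and Ccl24, an eosinophil chemokine, was 7564-fold higher with every array above background (12.88 ± 0.77, adjusted p = 2.88e-13). Cx3cl1, the membrane-bound ligand of CX3CR1, stood at 5.48, 5.18 and 3.82 against -3.62, -4.18 and -3.98, 430-fold apart. Ccl9 rose by 4.64 ± 0.29 log2. The 3 that were lower were the CXCR3 ligands. Cxcl10 was at 2.04, 0.94 and -1.30 in Mo-DC against 4.51, 4.01 and 4.30, a 13.1-fold difference without overlap (-3.71 ± 0.78, adjusted p = 0.000271). Cxcl9 was at 2.21, 1.22 and -0.00 against 3.46, 2.36 and 3.00, 3.47-fold lower (adjusted p = 0.0356), a call lost in 4 of the 6 fits that left out 1 array, without Mo-DC array 2 or 3 or macrophage array 1 or 3 (adjusted p 0.066 to 0.198), and with no filter on dim probes (0.051). Cxcl11 was below background on all Mo-DC arrays and at least 3.21-fold lower, a call that normexp ended (adjusted p = 0.606). Their receptor Cxcr3 was at least 12.1-fold lower (adjusted p = 1.83e-10), below background in Mo-DC and at -1.80, -1.62 and -1.88 in macrophages.

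Chemotactic receptors split evenly, with 7 of 26 higher and 7 lower (7 and 10 with median scaling). These shares were near those of all 16476 measured genes, of which 3844 were higher and 4402 lower. Ltb4r1, the leukotriene B4 receptor, was 30.7-fold higher (4.94 ± 0.38), and Cxcr2, a neutrophil chemokine receptor, was at least 15.7-fold higher. C5ar1, the receptor for complement C5a, was 19.4-fold lower (-4.28 ± 0.32), with 2 of 3 Mo-DC arrays above background.

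The IL-4-induced genes were the list with the highest median of the 38, 4.99 log2, and 33 of its 37 measured members were higher and none was lower. The list was written with earlier results of these arrays known, so its direction is a description. Retnla, a secreted product of alternative activation, was at 5.18, 4.69 and 7.06 in Mo-DC and below background in macrophages, at least 2598-fold higher (adjusted p = 2.85e-16). Arg1, which hydrolyses arginine, was at 7.41, 7.23 and 7.79 against -1.53, -1.81 and -2.25, 650-fold apart (9.34 ± 0.40, adjusted p = 3.82e-16). Mgl2, a galactose-binding lectin, was 3120-fold higher with 1 of 3 macrophage arrays above background. Chil4 and Chil3, the chitinase-like proteins Ym2 and Ym1, were 2685-fold and 226-fold higher, and their near-identical sequences leave the split between them uncertain. Cdh1, E-cadherin, was at least 241-fold higher (adjusted p = 1.37e-11), and Pdcd1lg2, the PD-1 ligand PD-L2, was 28.8-fold higher (4.85 ± 0.71, adjusted p = 2.45e-06). Every Mo-DC array was above every macrophage array for each of these genes. The remaining 4 measured members did not pass the test.

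STAT6, which the IL-4 receptor activates, binds the palindrome of TTC and GAA with any 4 bases between them, and the 250 bases upstream of the RefSeq gene start (build GRCm38.p6) were searched for them on both strands. Of the 39 genes written in the IL-4 list 26 had an entry, and 5 of their 33 promoters (15.2%), those of 4 genes, held the letters, against 1923 of all 32851 promoters (5.85%). Among type I interferon-stimulated genes, a list that was lower in Mo-DC, 5 of 26 promoters (19.2%) held them too. The stretches around the match are printed for the 3 of these genes named above, 5′ to 3′ on the gene's strand, because these genes were among those with large differences; capitals mark the match. They lie at chr8:94810269-94810338 on the plus strand for Ccl17, chr16:48842434-48842503 on the plus strand for Retnla and chr19:29410807-29410876 on the plus strand for Pdcd1lg2, with the match starting 154, 145 and 82 bases before the gene start.
Ccl17: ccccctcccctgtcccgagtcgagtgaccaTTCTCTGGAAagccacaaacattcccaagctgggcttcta
Retnla: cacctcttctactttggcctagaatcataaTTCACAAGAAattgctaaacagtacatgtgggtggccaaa
Pdcd1lg2: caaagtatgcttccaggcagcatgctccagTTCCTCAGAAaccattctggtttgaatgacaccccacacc
A match describes letters in this window and does not show a bound site. Binding was not measured here.

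The same genes were set beside the response of M-CSF macrophages to 24 h of IL-4. IL-4 macrophages differed from M0 macrophages in 2211 genes (12.6% of those tested), 1191 higher (6.77%) and 1020 lower (5.8%). This count was 1310 without IL-4 macrophage array 1, and 1466 when only these 2 groups were fitted. Of these 2211 genes 64.9% were also called between Mo-DC and IFN-γ macrophages, and of the 8368 Mo-DC calls 17.1% were also called for IL-4, 1434 genes in all, of which 1206 had the same direction in both. The difference between the 2 contrasts, tested as an interaction, was called for 5513 genes (31.3%), and 2605 of them were more positive in the Mo-DC contrast.

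For several IL-4 genes the difference between the contrasts did not pass the test. Arg1 rose by 9.34 log2 in Mo-DC and by 10.44 with IL-4 alone, a difference of -1.10 (adjusted p = 0.148). Cish rose by 7.72 and 6.65 (difference 1.07, adjusted p = 0.112), Chil3 by 7.82 and 7.56 (difference 0.25, adjusted p = 0.935) and Pdcd1lg2 by 4.85 and 6.58 (difference -1.73, adjusted p = 0.199). A p above the threshold does not show that these were equal, and where M0 macrophages were below background, as for Pdcd1lg2, Retnla, Ccl17, Ccr7, Rbp4 and Aldh1a2, the fitted IL-4 value depends on that dim signal. Of the 37 measured IL-4-induced genes 28 were higher in both contrasts, 15 differed in favour of Mo-DC and 3 in favour of IL-4 alone. Ccl17 was the most extreme of the first kind named here, rising by 13.95 log2 in Mo-DC and by 2.24 with IL-4 alone (difference 11.70 ± 0.95, adjusted p = 7.2e-10). Socs1 was of the second kind, rising by 0.91 in Mo-DC and by 3.56 with IL-4 in cells that had not had IFN-γ (difference -2.65, adjusted p = 0.000333).

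Dendritic cell genes responded in part to IL-4 in M-CSF macrophages. Of the 32 measured maturation genes 7 were higher and 4 lower with IL-4 alone, against 1167 higher and 1003 lower of all 16476 measured genes, and 20 were more positive in the Mo-DC contrast by the interaction test. Tnfrsf9 was below background in both M-CSF macrophage groups (0.23 with IL-4 alone, difference 8.59, adjusted p = 3.62e-12), Cd200 differed by 0.60 with IL-4 alone (adjusted p = 0.507, difference 5.68, adjusted p = 8.07e-07) and Plet1, a surface protein of some dendritic cells, by 0.68 (adjusted p = 0.372, difference 11.02, adjusted p = 9.97e-13). Ccr7 rose by 2.79 with IL-4 alone (adjusted p = 0.0225) and Itgax by 2.11 (adjusted p = 0.0137), and both rose more in Mo-DC (differences 6.18, adjusted p = 0.00018, and 2.34, adjusted p = 0.0284). Of the 37 measured conventional dendritic cell genes, 6 were higher with IL-4 alone and 21 were more positive in the Mo-DC contrast.

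**Figure D2:**
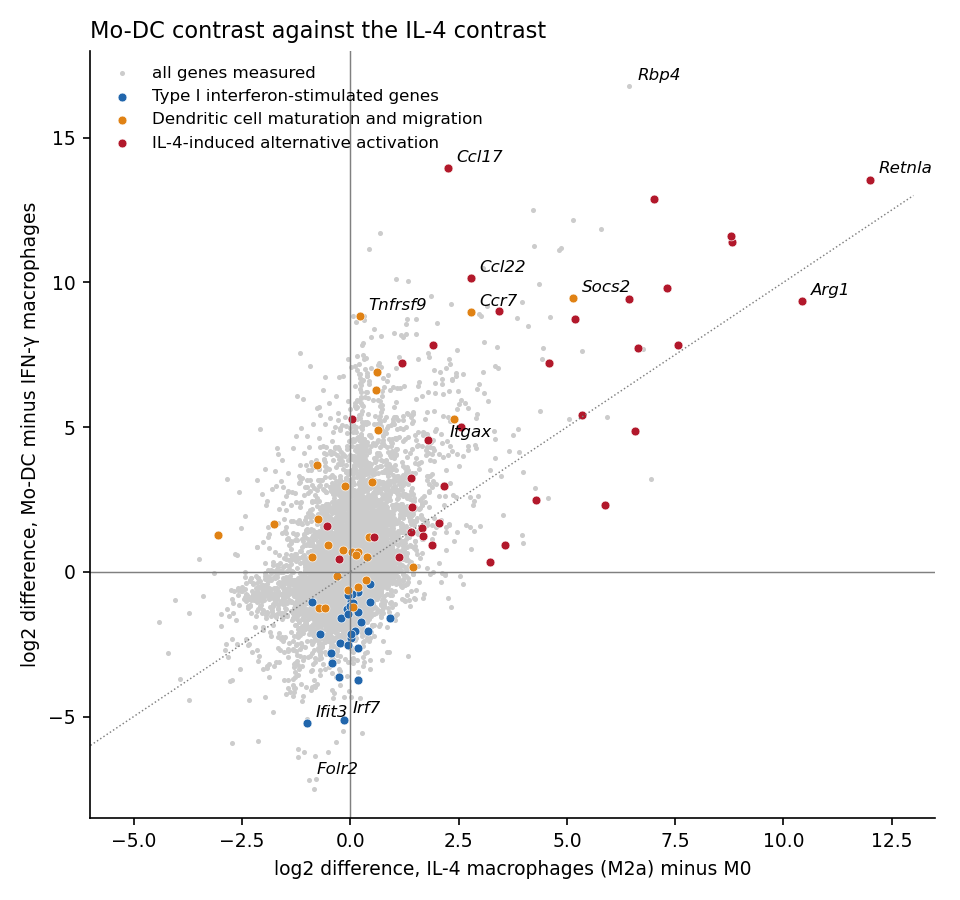
Log2 difference between Mo-DC and IFN-γ macrophages (vertical) against that between IL-4 macrophages and M0 macrophages (horizontal) for every measured gene, with 3 lists in colour and a dotted line of equal difference. Retnla and Arg1 lie near the line, Ccl17, Tnfrsf9 and Rbp4 lie far above it, and the type I interferon-stimulated genes lie below 0 on the vertical axis with values near 0 on the horizontal one.

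Interferon-stimulated genes were lower in Mo-DC, although both cultures had received IFN-γ. Of 29 measured type I interferon-stimulated genes 26 were lower and none was higher, with a median of -1.74 log2 and values from -5.23 to -0.41. Ifit3, which binds viral RNA complexes, was at 0.74, -0.17 and 0.07 in Mo-DC and at 5.23, 5.47 and 5.63 in macrophages, 37.6-fold apart (-5.23 ± 0.53, adjusted p = 7.63e-09). Irf7 was at -0.05, -0.34 and 0.29 against 4.77, 4.94 and 5.50 (-5.11 ± 0.45, adjusted p = 4.73e-10). Neither gene overlapped between the groups. Oas3, a sensor of double-stranded RNA, was 13.2-fold lower, Ifit1 12.4-fold lower and Ifi44 8.82-fold lower. In M-CSF macrophages that had no IFN-γ, IL-4 lowered 1 of the 29 genes and raised none, and 23 were more negative in the Mo-DC contrast by the interaction test. The effect of IL-4 in cells given IFN-γ was not tested.

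The letters GAAA, any 2 bases and GAAA again, the core of the interferon-stimulated response element bound by interferon regulatory factors, stood in 9 of 26 promoters (34.6%) of the 22 type I genes with an entry, against 978 of all 32851 promoters (2.98%) and 12 of 28 (42.9%) for the IFN-γ-induced list described next, with overlapping matches counted on both strands. The stretches below are shown for the genes of this list named above that hold them, and for Cxcl10. They lie at chr19:34583343-34583446 (plus strand) for Ifit3, chr19:34640755-34640843 (plus) for Ifit1, chr5:120777695-120777764 (minus) for Oas3 and chr5:92349063-92349132 (minus) for Cxcl10, all in GRCm38.p6. Capitals mark the match, which reads TTTC, any 2 bases and TTTC where it lies on the other strand.
Ifit3: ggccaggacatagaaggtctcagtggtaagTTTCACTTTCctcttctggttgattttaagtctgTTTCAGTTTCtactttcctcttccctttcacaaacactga
Ifit1: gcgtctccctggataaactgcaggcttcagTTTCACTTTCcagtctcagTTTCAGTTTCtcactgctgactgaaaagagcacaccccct
Oas3: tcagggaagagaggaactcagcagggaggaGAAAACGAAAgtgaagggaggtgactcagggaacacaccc
Cxcl10: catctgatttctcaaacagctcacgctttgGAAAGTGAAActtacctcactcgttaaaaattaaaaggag
Ifit3 and Ifit1 each held 2 matches in the window, and Oas3 and Cxcl10 held 1.

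Genes induced by IFN-γ were more mixed. Of 35 measured, 17 were lower and 4 higher, with a median of -0.76 log2. Fcgr1, the high-affinity IgG receptor, was at 5.21, 4.76 and 4.67 in Mo-DC and at 8.04, 8.23 and 8.05 in macrophages, 9.34-fold lower without overlap (-3.22 ± 0.27, adjusted p = 2.68e-10). Cd274, which encodes PD-L1, was at 6.08, 5.70 and 6.13 against 6.12, 6.10 and 5.92, with overlapping arrays (-0.08 ± 0.18, adjusted p = 0.753). With median scaling Cd274 was called lower (-0.43, adjusted p = 0.0499). The 4 members that rose were Nos2, Ido1, Ccl5 and Socs1, and 7 rose with only the 2 groups fitted. Nos2, the inducible nitric oxide synthase, was at 0.47, -0.02 and 0.12 in Mo-DC and below background on every macrophage array, at least 59.1-fold higher (adjusted p = 2.81e-11). Ido1, which degrades tryptophan, was at -0.27, -2.40 and -2.01 against -4.53, -5.42 and -5.48, 12-fold higher (3.58 ± 0.75, adjusted p = 0.00026).

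Antigen presentation genes differed by class. For MHC class I, 10 of 19 measured genes were lower and none higher, with a median of -0.31 log2. Tap1, which carries peptides into the endoplasmic reticulum, was at 3.78, 3.68 and 3.84 in Mo-DC against 4.78, 4.76 and 4.85, 2.04-fold lower (-1.03 ± 0.16, adjusted p = 7.21e-06). The immunoproteasome subunit Psmb8 was 2.08-fold lower, the peptide editor Tapbpl 2.87-fold lower and the class I-like molecule H2-M3 2.23-fold lower. For MHC class II most genes did not pass the test, with 4 of 18 higher and 1 lower, or 3 and 4 with median scaling. H2-Ab1, the class II beta chain, was at 6.92, 6.80 and 7.14 against 7.43, 7.15 and 6.66, overlapping (-0.13 ± 0.51, adjusted p = 0.859). The class II activator Ciita differed by -0.89 ± 0.66 log2 and did not pass either (adjusted p = 0.281). H2-Ob, a chain of the class II regulator H2-O, was 5.38-fold higher with 1 of 3 macrophage arrays above background (adjusted p = 0.000856), a call lost with normexp (adjusted p = 0.0617). Ifi30, a lysosomal thiol reductase for antigens, was 3.13-fold higher (1.65 ± 0.27, adjusted p = 1.22e-05).

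Of 27 measured genes of T cell costimulation and inhibition, 11 were higher and 6 lower (11 and 7 with median scaling). Slamf1, an adhesion receptor of activated dendritic cells, was below background in macrophages and at least 109-fold higher in Mo-DC (adjusted p = 1.42e-12). Il4i1, a secreted amino acid oxidase that dampens T cells, was at 2.57, 3.90 and 4.49 against -3.74, -3.69 and -3.24, 148-fold apart (7.21 ± 0.37). Cd80, a CD28 ligand, rose 2.29-fold (1.19 ± 0.27, adjusted p = 0.000689).

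Among macrophage genes 18 of 38 measured were lower and 9 higher, with a median of -0.39 log2, or -0.17 at the bounds. Their summed linear level overlapped between the groups, at 1885.32 to 2296.06 times the 75th percentile in Mo-DC and 2087.09 to 2337.03 in macrophages. Adgre1, which encodes the F4/80 antigen, was at 5.76, 5.26 and 6.11 in Mo-DC and at 7.5, 7.70 and 7.72 in macrophages, 3.81-fold lower without overlap (-1.93 ± 0.18, adjusted p = 2.64e-09), so Mo-DC still had a bright signal for it. Folr2, the folate receptor of tissue-type macrophages, was at -1.99, -2.52 and -1.14 against 5.06, 5.49 and 5.37, 146-fold lower (-7.19 ± 0.41, adjusted p = 1.44e-13). Hpgds, a prostaglandin D2 synthase, was 83.8-fold lower with 2 of 3 Mo-DC arrays above background, and the scavenger receptor Stab1 was 17.7-fold lower (adjusted p = 1.6e-08). Members that went the other way were Lyve1, a hyaluronan receptor, and Slco2b1, a transporter, both below background in macrophages and at least 21.4-fold and 24.7-fold higher. Mertk, a receptor for dying cells, did not pass the test (0.63 ± 0.47, adjusted p = 0.276), though it did with normexp (0.0459) and with the slide block on these 2 groups (0.0272). Cd14 did not pass either (-0.82 ± 0.36, adjusted p = 0.066), but was called lower with median scaling (-1.17, adjusted p = 0.00728), on a single scan day (0.0125) and without Mo-DC array 2 (0.0344).

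Fc receptor and complement genes changed in both directions, with 9 of 27 higher and 13 lower. The inhibitory receptor Fcgr2b rose by 4.17 ± 0.62 log2 (adjusted p = 3.78e-06) while the activating Fcgr1 fell by 3.22. C1qa, a chain of the first complement component, was at 1.98, 1.90 and 3.17 against 4.87, 5.02 and 4.94, 6.04-fold lower (adjusted p = 0.00594), which did not pass on the arrays of a single scan day (adjusted p = 0.108). C4b was 14.6-fold lower (adjusted p = 7.1e-05). Cd55, which protects cells from complement, was at least 3.42-fold higher.

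Pattern recognition receptors were lower, 18 of 26 measured against 1 that was higher, with a median of -0.62 log2. Tlr1 was 3.94-fold lower (-1.98 ± 0.19), Tlr3 3.69-fold lower (-1.88 ± 0.26), the cytosolic sensor Nod2 3.34-fold lower (-1.74 ± 0.27) and Ly86, the partner of the receptor RP105, 3.17-fold lower (adjusted p = 4.42e-05). Of 24 C-type lectins and related genes 13 were higher and 6 lower (9 and 6 with median scaling). Olr1, the receptor for oxidised lipoproteins, was at 4.82, 4.71 and 4.30 in Mo-DC and below background in macrophages, at least 1267-fold higher (adjusted p = 3.56e-12). Clec4a1 was at least 8.38-fold lower. Scavenger and engulfment genes were balanced, with 11 of 31 higher and 10 lower, or 8 and 12 with median scaling. Mfge8, a bridge to dying cells, rose 13.3-fold (3.74 ± 0.55), and the macrophage-secreted protein Cd5l was 7.17-fold lower (adjusted p = 0.0118), a call lost on a single scan day (adjusted p = 0.092).

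**Figure D3:**
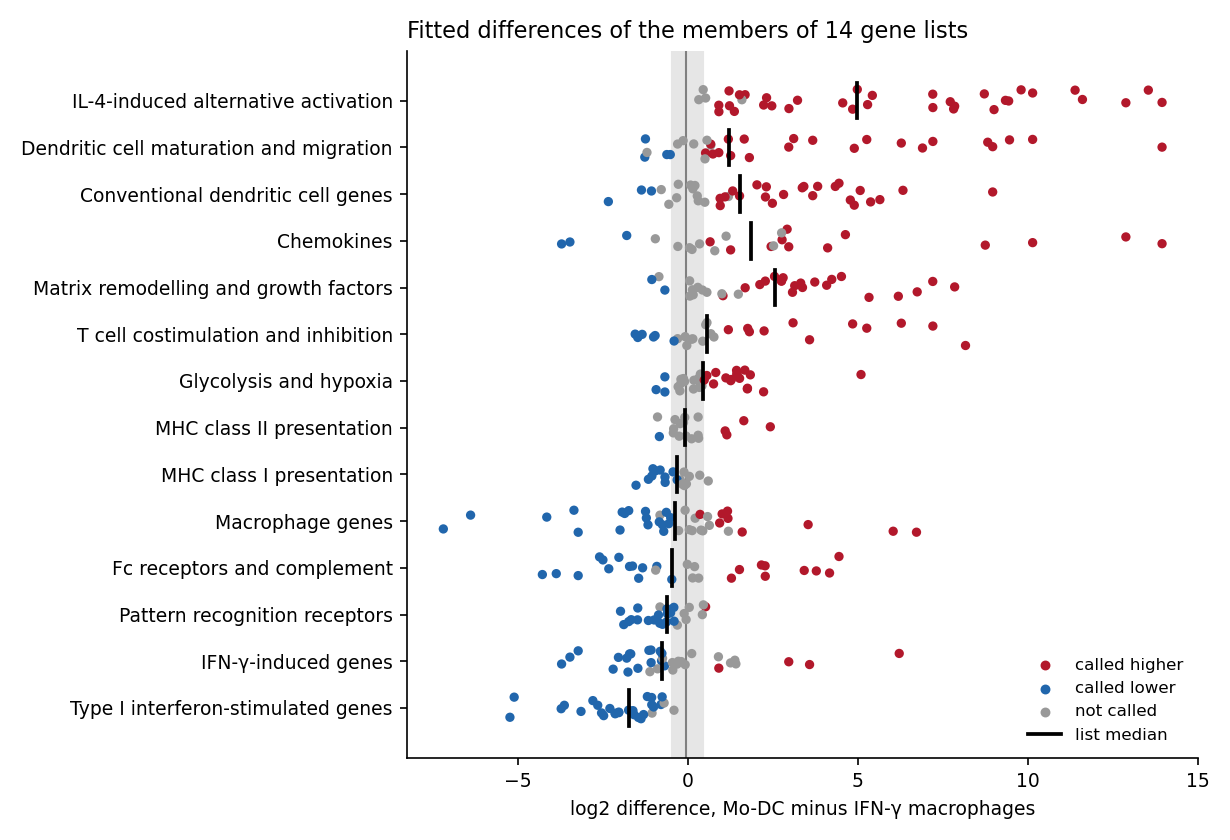
Fitted log2 differences between Mo-DC and IFN-γ macrophages for the measured members of 14 gene lists (1 point per gene, red called higher, blue called lower, grey not called, black bar the list median). The grey band holds the middle 50% of all measured genes; the IL-4-induced list has its median at 4.99 and the type I interferon-stimulated list at -1.74.

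Inflammatory cytokines split. Il1a was at 0.12, 0.08 and -0.35 in Mo-DC and below background in macrophages, at least 50.3-fold higher (adjusted p = 3.1e-07), Il6 rose 22.6-fold with 2 of 3 macrophage arrays above background (4.5 ± 0.5), and Osm, oncostatin M, rose 8.13-fold. In contrast Il10, the anti-inflammatory cytokine, was below background on every Mo-DC array and at -1.79, -0.88 and -0.70 in macrophages, at least 19-fold lower (adjusted p = 6.17e-10). Il18 was at -2.63, -2.29 and -2.50 against 1.32, 1.53 and 1.71, 15.9-fold lower (-3.99 ± 0.21, adjusted p = 1.56e-14). Tnf was 3.49-fold lower (-1.80 ± 0.34, adjusted p = 7.79e-05), a call lost when the slide number was a block and only these 2 groups were fitted (adjusted p = 0.0517). Il1b was at 0.69, 1.03 and -1.87 against -1.93, -1.70 and -1.10, and its Mo-DC array 3 lay among the macrophage arrays (1.53 ± 0.77, adjusted p = 0.103). Without that array the Il1b difference was 2.44 log2 and was called (adjusted p = 0.012), as it was with normexp (0.0442). Of 32 measured cytokines and NF-kB targets 16 were higher and 9 lower, against 10 and 13 with median scaling.

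Retinoid and lipid genes included the largest difference of all. Rbp4, the carrier of retinol, was at 8.73, 9.23 and 8.37 in Mo-DC and below background on every macrophage array, at least 22770-fold higher (fitted log2 16.77 ± 0.71, adjusted p = 3.21e-16); its probe lies at chr19:38181783-38181842 in build mm8. Aldh1a2, which makes retinoic acid in dendritic cells that imprint gut homing, was at 5.11, 5.04 and 4.58 and at least 1561-fold higher (adjusted p = 8.44e-13). Both were below background in macrophages, so no upper limit can be set. IL-4 alone raised Rbp4 by 6.43 log2 and Aldh1a2 by 4.25, both less than in Mo-DC (differences 10.34, adjusted p = 1.87e-08, and 7.00, adjusted p = 6.07e-06). Scd1, a fatty acid desaturase, was at least 34.2-fold higher. Apoe, the lipoprotein of lipid efflux, was at 2.88, 2.60 and 4.57 against 9, 8.76 and 8.75, 44.8-fold lower (-5.49 ± 0.44, adjusted p = 9.04e-11). Of 36 measured genes of lipid handling 15 were higher and 9 lower, against 13 and 14 with median scaling. Cholesterol synthesis had 9 of 26 higher and 4 lower, against 3 and 10 with median scaling, where most called genes of the whole array were lower too. Its higher count was 3 without Mo-DC array 3 and 5 without macrophage array 1, and its lower count was 2 without Mo-DC array 1 or 2. Mvd, of the mevalonate pathway, rose 6.64-fold (2.73 ± 0.16, adjusted p = 1.34e-13).

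Eicosanoid genes changed in kind. Alox5, which starts leukotriene synthesis, was at 3.62, 3.76 and 2.45 against -3.66, -3.17 and -4.55, 134-fold higher (7.06 ± 0.59, adjusted p = 1.96e-10). Ptgis, prostacyclin synthase, was at least 53.4-fold higher and Ptgir, the prostacyclin receptor, 40.7-fold higher (5.35 ± 0.23, adjusted p = 4.58e-16), whereas Hpgds was lower as given above. A dimmer Ptgir probe, above background on every array of both groups, was higher by only 1.71 log2. Alox15, an IL-4-induced lipoxygenase of macrophages, was at least 8.60-fold higher in Mo-DC and below background in M-CSF macrophages with and without IL-4. Its level was higher still in the freshly sorted monocytes, at 2.22, 1.62 and 1.84 against -3.01, -1.98 and -2.8 in Mo-DC. Of 28 measured, 13 were higher and 9 lower (12 and 10 with median scaling).

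Both arginine pathways were higher together. Beside Arg1 and Nos2, the arginine importer Slc7a2 rose 43.1-fold (5.43 ± 0.45, adjusted p = 1.36e-10) and Ass1, which rebuilds arginine from citrulline, 14.1-fold (3.82 ± 0.43, adjusted p = 3.78e-08). IL-4 alone raised Arg1, Slc7a2 and Ass1, and left Nos2 below background (0.26 log2, adjusted p = 0.813). Of 21 measured genes of arginine use 12 were higher and 4 lower (8 and 5 with median scaling), and of 21 genes of tryptophan, itaconate and the oxidase 13 were higher and 2 lower (7 and 4). Slc11a1, the phagosomal metal transporter, was 5.13-fold lower (-2.36 ± 0.19, adjusted p = 6.13e-11). Glycolysis and hypoxia genes had 18 of 34 higher and 3 lower, or 11 and 6 with median scaling, among them Hk2 (3.58-fold, 1.84 ± 0.18) and Egln3 (34.2-fold, with 1 of 3 macrophage arrays above background). Oxidative stress and iron genes had 18 of 35 higher and 7 lower, or 10 and 11 with median scaling, and 3 and 4 were lower without macrophage array 2 and 3. The cystine importer Slc7a11 rose by 4.81 ± 0.50 log2 and the iron exporter Slc40a1 was 4.29-fold lower (adjusted p = 0.000141).

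Matrix genes rose as a group, with 21 of 33 measured higher and 2 lower and a median of 2.55 log2, or 1.81 at the bounds. Fn1, fibronectin, was at 4.00, 4.4 and 4.5 against -2.51, -3.57 and -4.58, 231-fold apart (7.85 ± 0.95, adjusted p = 1.41e-07). Mmp12, the macrophage elastase, was 148-fold higher (7.2 ± 0.61), Mmp2 at least 22.4-fold, the growth factor Hbegf 73.1-fold and the protease inhibitor Timp1 40.2-fold. The matrix list kept 21 higher and 2 lower with median scaling. Of 36 lysosomal genes 18 were higher and 8 lower, against 12 and 14 with median scaling, and 5 were lower without macrophage array 1. The bone-resorbing protease Ctsk rose 43.4-fold and the phosphatase Acp5 30.2-fold (4.92 ± 0.32). Of 31 integrin and adhesion genes 12 were higher and 8 lower (10 and 12 with median scaling), with Jam2 at least 63.7-fold higher and the integrin chain Itga8 21.3-fold lower with 1 of 3 Mo-DC arrays above background.

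Of 38 measured cell division genes 11 were lower and 1 was higher, with a median of -0.41 log2, and 23 were lower with median scaling. The share that was lower was near that of all 16476 measured genes, of which 4402 were lower and 3844 higher. With median scaling 7777 of all measured genes were lower. Mcm2, of the replicative helicase, was 2.15-fold lower (-1.10 ± 0.26, adjusted p = 0.000939) and Tk1, thymidine kinase, 2.86-fold lower. IL-4 alone lowered 33 of these 38 genes, and 26 of them were more positive in the Mo-DC contrast than in the IL-4 contrast by the interaction test.

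The largest decreases outside the lists were in the Ms4a family of membrane proteins. Ms4a4d was at 0.76, 1.38 and 2.46 in macrophages and below background in Mo-DC, at least 114-fold lower (adjusted p = 4.21e-10). Ms4a4c was 142-fold lower, Ms4a4b 82-fold lower with 2 of 3 Mo-DC arrays above background, and Ms4a6b 74.2-fold lower. The adhesion molecule Cadm1 was at -3.44, -3.55 and -3.53 against 2.86, 3.01 and 2.31, 75-fold lower (-6.23 ± 0.49, adjusted p = 5.96e-11), and the extracellular nuclease Dnase1l3 was 47.9-fold lower. Among the 12 largest increases over the macrophages were also Ear1, Ear10 and Ear6, ribonucleases of eosinophils and myeloid cells, at least 1298-fold, 811-fold and 513-fold higher. Freshly sorted monocytes had means of 5.07, 3.59 and 3.61 for these genes, against 4.64, 3.97 and 3.30 in Mo-DC, with overlapping arrays. The Ear genes and the Ms4a4 genes are close copies of one another, and whether their probes tell them apart was not tested.

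Markers of other cell types differed from list to list. Of all 16476 measured genes 3844 were higher and 4402 lower. Of 21 measured T and NK cell genes 17 were higher in Mo-DC and 1 lower, with a median of 2.46 log2 (1.66 at the bounds), and 9 were higher and none lower with normexp. Their summed linear level was 3.1 to 5.56 times the array's 75th percentile over the Mo-DC arrays and 1.04 to 1.31 over the macrophage arrays, and 2 of the 23 tested, Cd2 and Cd247, were below background on all 6. Gzmb, a cytotoxic granule protease, was at -1.12, -2.55 and 0.45 in Mo-DC and below background in macrophages, at least 24.7-fold higher (adjusted p = 6.3e-09). Gzma was at -1.24, -3.41 and -0.15 and Nkg7 at -2.60, -3.70 and -0.99, so array 3 was highest and array 2 lowest for all 3 genes. The freshly sorted monocytes of the series had Gzmb at 0.24 ± 0.73 and Nkg7 at 5.22 ± 0.47 (mean ± SD, n = 3). Of 13 measured mast cell, basophil and eosinophil genes 6 were higher and none lower, or 3 higher with normexp and 4 higher and 1 lower after quantile normalization, with a summed level of 9.58 to 11.45 against 0.8 to 1.05, while Epx, Prg3, Ms4a2 and Il5ra were below background on all 6 arrays. Siglecf, a marker of eosinophils and some macrophages, was at 3.33, 3.27 and 2.64 against -1.79, -2.88 and -3.32 (5.74 ± 0.64, adjusted p = 3.49e-08). This gene alone made up most of the summed mast cell, basophil and eosinophil level on each Mo-DC array. Of 17 neutrophil and granule genes 6 were higher and 1 lower, and Elane was below background throughout. Of 16 markers of Ly6C-high monocytes 5 were higher and 6 lower (5 and 7 with median scaling); Ly6c1 was 9.85-fold lower (adjusted p = 1.87e-05) and Plac8 13.7-fold lower. Of 10 B and plasma cell genes 4 were higher and 3 lower, among them Cd22, which rose 7.21-fold, and Cd79b, which was 8.76-fold lower, and Ms4a1, Igll1, Cr2 and Pou2af1 were below background on all 6 arrays. Plasmacytoid dendritic cell markers had 5 of 12 higher and 3 lower (4 and 4 with median scaling), erythroid and megakaryocyte markers 3 of 15 higher and none lower, and stromal and endothelial markers 6 of 12 higher and none lower. For erythroid and megakaryocyte markers the share that was higher was near that of all measured genes. The Ly6C-high monocyte, B and plasma cell and plasmacytoid lists changed in both directions. The summed neutrophil markers were 11.44 to 33.12 against 8.41 to 10.21, those of Ly6C-high monocytes 848.79 to 991.54 against 440.07 to 481.42 and those of B cells 46.79 to 68.12 against 17.21 to 17.66. The part of such cells in the dendritic cell, chemokine or interferon differences was not tested.

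**Figure D4:**
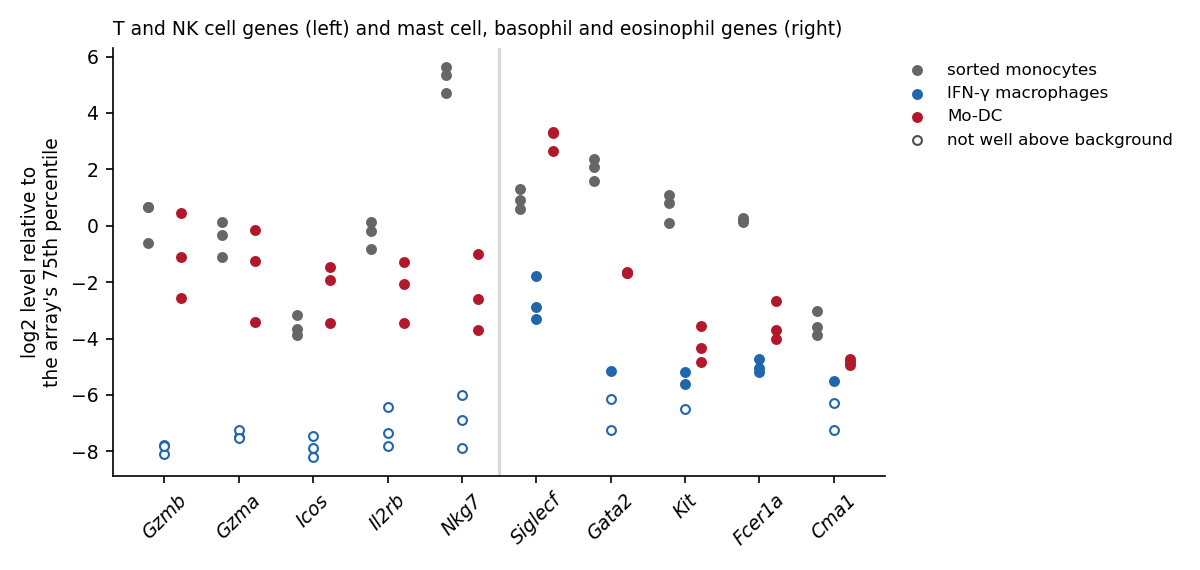
Levels of 5 T and NK cell genes and 5 mast cell, basophil and eosinophil genes on each array of sorted monocytes (grey), IFN-γ macrophages (blue) and Mo-DC (red), as log2 intensity relative to the array's 75th percentile, with open points not well above background. Gzmb lies between -2.55 and 0.45 in Mo-DC and is open on all 3 macrophage arrays.

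Set among all 12 groups of the series, Mo-DC had the highest mean level of Itgax, Ccr7, Irf4 and Ccl17. Beside IFN-γ macrophages, only MΦ_M2b and MΦ_M2c shared slides with Mo-DC, so margins to the other groups, sorted monocytes among them, cross slides. For Itgax the margin was small, since IL-4 macrophages had a mean of 7.23 against 7.94, and only 0.09 log2 separated the lowest Mo-DC array from the highest IL-4 macrophage array. For Ccl17 the gap to the next group, regulatory macrophages given lipopolysaccharide (Mreg_+LPS), was 8.36 log2, for Ccr7 the gap to M1 macrophages was 2.26 and for Irf4 the gap to IL-4 macrophages was 1.79. Zbtb46 and Arg1 had their highest mean in Mo-DC too, but overlapped with M1 macrophages and with unpurified regulatory macrophages (Mreg_unpurified). The Zbtb46 overlap was that of its brightest probe, and its other probes were not compared over the 12 groups. Mo-DC had the lowest mean of Csf1r, Apoe, Irf7 and Il10, though only 0.05 log2 separated Csf1r from the sorted monocytes and Irf7 overlapped with regulatory macrophages grown without IFN-γ. Il10 was above background in 10 of the 12 groups on all arrays, but not in Mo-DC. Folr2 was lower only in sorted monocytes, at -5.91 against -1.88 in Mo-DC, and the next group up, Mreg_+LPS, was 5.31 log2 above the highest Mo-DC array. Ifit3 was lower only in regulatory macrophages without IFN-γ. Some genes that were higher in Mo-DC than in IFN-γ macrophages were as high or higher in the sorted monocytes. Fn1 had a mean of 5.73 in monocytes against 4.30 in Mo-DC, Alox5 5.20 against 3.27 and Alox15 1.89 against -2.6. Ear1, Ear6, Ear10, Chil3 and Cxcr2 overlapped between sorted monocytes and Mo-DC. Of the dendritic cell genes named above, Spint2 was higher in sorted monocytes, and P2ry10 and Ly75 overlapped with them. Ly75 had its highest mean in Mreg_+LPS (1.76 against 1.07 in Mo-DC), and Cd200 ranked 6 of 12 in Mo-DC. Nos2 ranked 3 of 12 in Mo-DC, 1.27 log2 below the lowest array of the next group, Mreg_+LPS, and 4.86 log2 above the highest array of the group that followed.

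**Figure D5:**
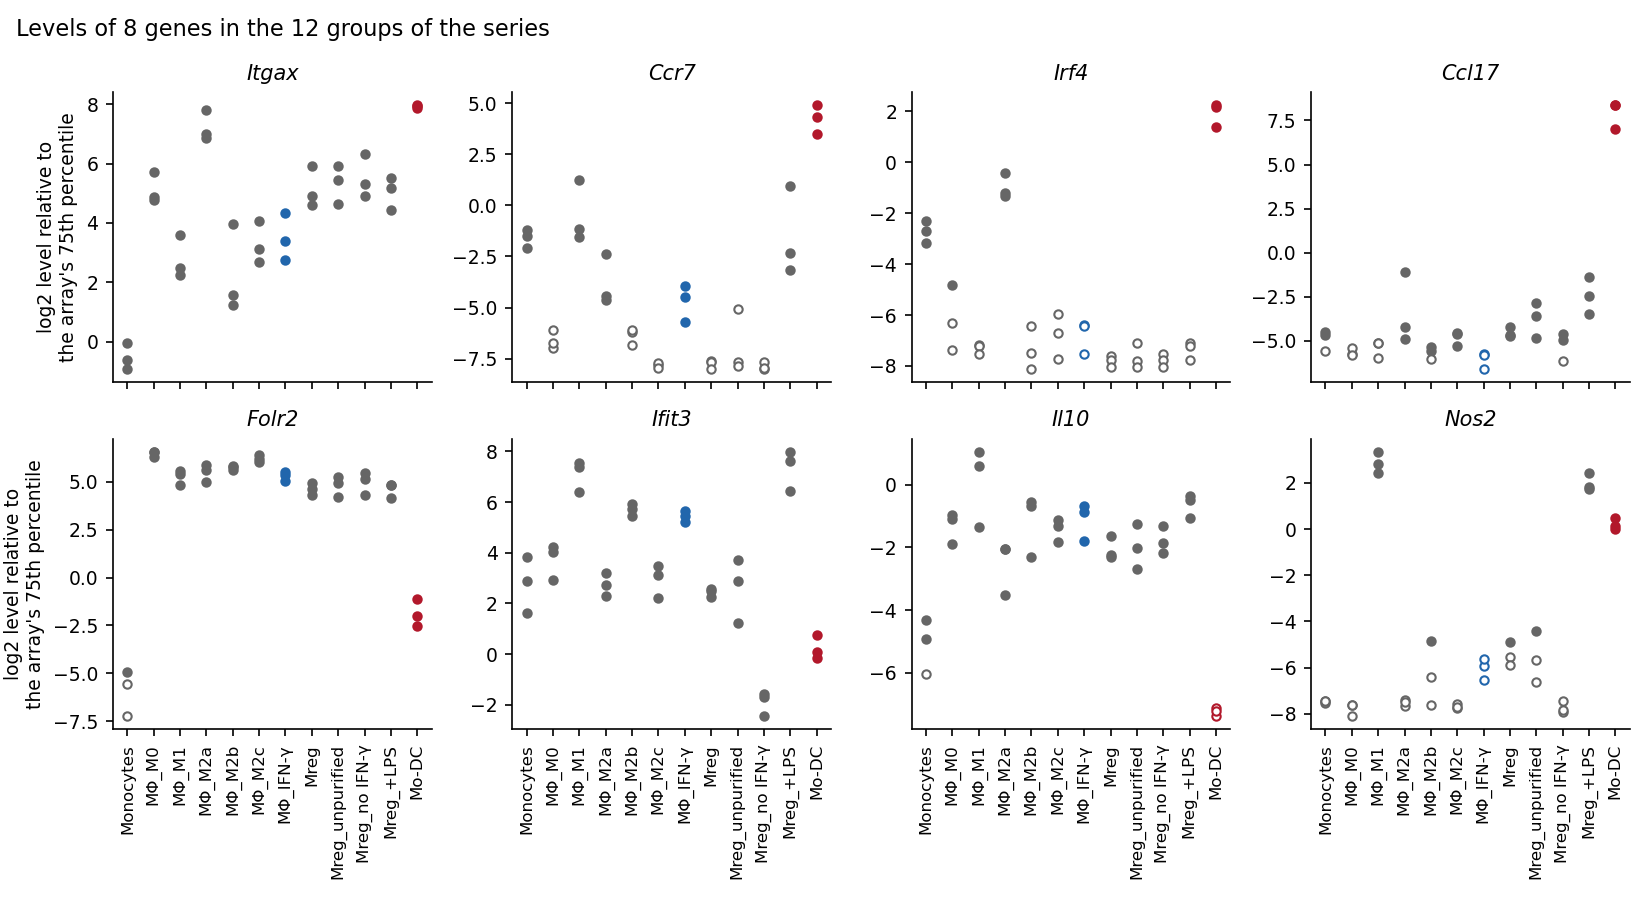
Levels of 8 genes on the 3 arrays of each of the 12 groups, as log2 intensity relative to the array's 75th percentile, with Mo-DC in red, IFN-γ macrophages in blue, other groups in grey and open points not well above background. Ccl17 and Irf4 are highest in Mo-DC with a gap, Itgax is nearly as high in IL-4 macrophages (MΦ_M2a), and Il10 is below background in Mo-DC.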

How the data were processed

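The authors deposited 1 Agilent Feature Extraction file per array (version 10.5.1.1, per the file headers), and the intensity used was its processed signal, background-subtracted by the scanner software, with its flags for signal above background. The log2 values of the deposited series table, whose processing is not given in the sources used here, served as an alternative. Control spots were left out, each array was scaled to its 75th percentile, and a probe entered the test if 3 or more of the 36 arrays showed it well above background (26460 of 41174 probes, 17591 genes, 1 probe per gene). The brightest probe was kept. Of 194 named genes 58 had another probe above background on all 3 arrays of a group. None had the other sign, but sizes differed, as for Ms4a4b (-6.36 log2 against -5.47, -1.46 and -1.38), Oas3 (-3.72 against -1.89) and Cd80 (1.19 against 2.69). All 12 groups were fitted together in limma 3.58.1 (R 4.3.3, lmFit and eBayes) with Benjamini-Hochberg adjustment over all genes, and every adjusted p in the text comes from that model unless another setting is named. The difference between the Mo-DC and IL-4 contrasts was an interaction term. The groups, genes and 38 lists were chosen with earlier results of these data known.

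The genes named were the 12 largest differences in each direction among called, non-overlapping genes bright enough in 1 group, up to 5 called members of each list with at least 2-fold difference, and a fixed set of reference genes; others are named only for being below background or as members of a short count. On simulated data of 17400 genes for the Mo-DC comparison, 80 of 100 genes changed by 1 log2 and 86 of 100 changed by 2 log2 were recovered, with 13 false calls. Only these genes were changed there, with independent normal noise and no slide effect. In the real data 47.6% of genes were called, so these rates need not carry over. Alternatives covered background correction, scaling, probe filter and choice, the deposited table, the groups fitted, slide or scan day, and leaving out each array. Promoters were those of RefSeq on GRCm38.p6. Probe positions are those of the array files (mm8). A few items are not reported here.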

Additional observations from a re-analysis of the deposited data

How the results depend on the processing

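Leaving out 1 array gave 7439 to 7739 called genes in place of 8368, and 7268 to 7448 of the 8368 were among them. With normexp background correction 2084 genes were called with at least 2-fold difference in place of 3610. With median scaling 2477 genes were higher and 7868 lower in place of 3940 and 4428. The IL-4 count of 2211 was 1466 with only the 2 groups fitted, 958 on the arrays of a single scan day and 1310 to 2153 when 1 array was left out, the lowest without IL-4 macrophage array 1; the cause was not tested. The sign of Tlr5, lower in Mo-DC, changed with normexp (0.31 log2, adjusted p = 0.422). Of 183 called genes named by the rule, 162 kept their call under every alternative run, 8 lost it only with normexp and 13 under another setting. Same-numbered Mo-DC and macrophage arrays correlated in their deviations at 0.226, 0.079 and 0.112. Since 1 value is not over 0.1 the numbers were not taken as pairs, though each array correlated best with its own number. Same-numbered IL-4 and M0 macrophage arrays correlated at 0.194, 0.154 and 0.268, all over 0.1. The IL-4 and interaction contrasts were nevertheless fitted without pairs. With slide as a random block (correlation 0.229) 9399 genes were called for Mo-DC, 3277 for IL-4 and 6744 for the interaction. With the replicate number as a block 9244 genes were called with all groups fitted and 8472 with only the compared ones, and the IL-4 count was 2977 and 1096; with only the compared groups the block ended the call of Tnf (adjusted p = 0.0517) and gave calls for Cd86 (0.0236) and Mertk (0.0272). Dim probes limit the size of the differences reported as at least N-fold.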

Other observations

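Some genes outside the naming rule were chosen after their values were seen. Il33, an alarmin whose receptor Il1rl1 was also higher, was at 3.59, 3.77 and 2.75 in Mo-DC and below background on every macrophage array, at least 537.2-fold higher (limma, adjusted p = 1.17e-17). Rarb, a retinoic acid receptor, was at 1.59, 1.32 and 1.06 and at least 129.9-fold higher (adjusted p = 1.16e-19). The membrane semaphorin Sema7a and the water and glycerol channel Aqp3 were at least 527.9-fold and 495.7-fold higher. Ifng itself was at -3.28, -4.85 and -3.19 in Mo-DC and below background in macrophages, at least 3.8-fold higher (adjusted p = 3.39e-07). Cd72, a receptor of B cells and some myeloid cells, was 20.7-fold lower (-4.37 log2, adjusted p = 1.79e-17).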
